A study of Mus musculus with 13 samples.

Results

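The mitochondrial genome encodes subunits of 4 respiratory complexes, and the 6 transcripts described here are those of complexes III, IV and V. They were taken by transcript ID, without the version suffix: MT-CYB (ENST00000361789) of complex III, MT-CO1 (ENST00000361624), MT-CO2 (ENST00000361739) and MT-CO3 (ENST00000362079) of complex IV, and MT-ATP6 (ENST00000361899) and MT-ATP8 (ENST00000361851) of complex V. All 6 were present in each of 13 tumour libraries, among 244939 transcripts in all, and all 6 passed the filter on low counts that left 74973 transcripts for testing. The tables list transcripts by ID without gene names, so the symbols come from the rule that chose the IDs.

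MDA-MB-231, a long-established line of human triple-negative breast cancer, was grown as tumours in the 4th right mammary gland of female NSG mice aged 12 to 13 weeks. NSG mice lack mature lymphocytes, although the labels call them immunocompetent. The vehicle group, with 7 libraries, received 40% DMSO with 60% polyethylene glycol by gavage each day. The OCA group, with 6 libraries, received 30 mg per kg of obeticholic acid in the same solvent and by the same route, so both groups share the DMSO and polyethylene glycol. Obeticholic acid is an agonist of the bile acid receptor FXR. The design text puts tumour growth at 14 days, and 8 vehicle and 7 OCA mice entered treatment. Each library was taken as 1 animal from its own label number.

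Complex III passes electrons from ubiquinol to cytochrome c, complex IV passes them from cytochrome c to oxygen, and complex V uses the resulting proton gradient to make ATP. The mitochondrial genes are transcribed as long precursors from both strands and are cut, largely at the tRNAs between them, into single mRNAs. MT-ATP8 and MT-ATP6 overlap and remain on a shared mRNA, so reads from that molecule can belong to either. Triple-negative breast tumours lack the oestrogen and progesterone receptors and ERBB2 amplification.

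Library totals ran from 34015674 to 49844746 estimated reads in vehicle and from 44150968 to 50596490 in OCA tumours, and vehicle replicates 2, 3 and 5 had the lowest totals of all 13 libraries. Vehicle replicates 1 and 4 and OCA replicate 2 stood apart on the first principal component. Long transcripts, of at least 4000 bases, held 26.6% ± 0.564 of the reads in vehicle (SD, n = 7) and 28.0% ± 0.743 in OCA tumours (SD, n = 6). The label numbers fall into a lower series (vehicle 4, 6 and 7 with OCA 1, 3, 4 and 5) and an upper series (vehicle 1, 2, 3 and 5 with OCA 2 and 6), and what they record is not given. Of the markers, EGFR was at 265 ± 49.5 CPM (read counts relative to the TMM-scaled library total) in vehicle and 308 ± 27.7 in OCA tumours, and ERBB2 at 41.1 ± 8.25 and 40.1 ± 7.09 (SD, n = 7 and 6). The listed ESR1 and PGR transcripts had at most 15.9 and 2.05 reads in a library, and the listed PTPRC transcript, a human leukocyte marker, had 0 in all 13. The single VIM transcript listed held at most 102 reads, so it did not serve as a check of this mesenchymal line.

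No member passed the adjusted threshold in the comparison of OCA with vehicle, and the estimates of all 6 were below 0, except that MT-CO1 was at 0.02 on the deposited TPM scale. MT-CYB had the lowest estimate, 16.9% lower in OCA tumours, and MT-CO1 the one nearest to 0, 1.50% lower. The estimates of MT-CO2, MT-CO3 and MT-ATP8 were 7.20% to 8.80% lower, and that of MT-ATP6 10.1% lower. These sizes rested on which libraries entered. Without vehicle replicates 2, 3 and 5, the libraries of lowest depth, the log2 fold changes were -0.03 for MT-CO2, MT-CO3 and MT-ATP8, -0.08 for MT-ATP6, -0.18 for MT-CYB and 0.02 for MT-CO1. Without the 3 libraries apart on the first principal component they were -0.26, -0.20, -0.22 and -0.23 for MT-CO2, MT-CO3, MT-ATP8 and MT-ATP6. By edgeR's quasi-likelihood test, 0 of 6 members and 0 of the 74973 transcripts tested (0%) had an adjusted p under 0.05. At an unadjusted p under 0.05, 1 member, MT-CYB, was lower, where 1052 transcripts (1.40%) were lower over all transcripts. Estimates below 0 were found for 36763 of all transcripts (49.0%), and the median log2 fold change was -0.13 over the 6 members and 0.01 over all transcripts. DESeq2 called 410 of the 109259 transcripts it tested and limma-voom 0 of 74973, and each called 0 members. The 6 mRNAs come from shared precursors and are not independent of each other, so the shared sign of their estimates is a description. In bulk tumour RNA, fewer cells of a type and less of a transcript per cell cannot be told apart, and reads of mouse cells were not separated here.

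**Figure D1:**
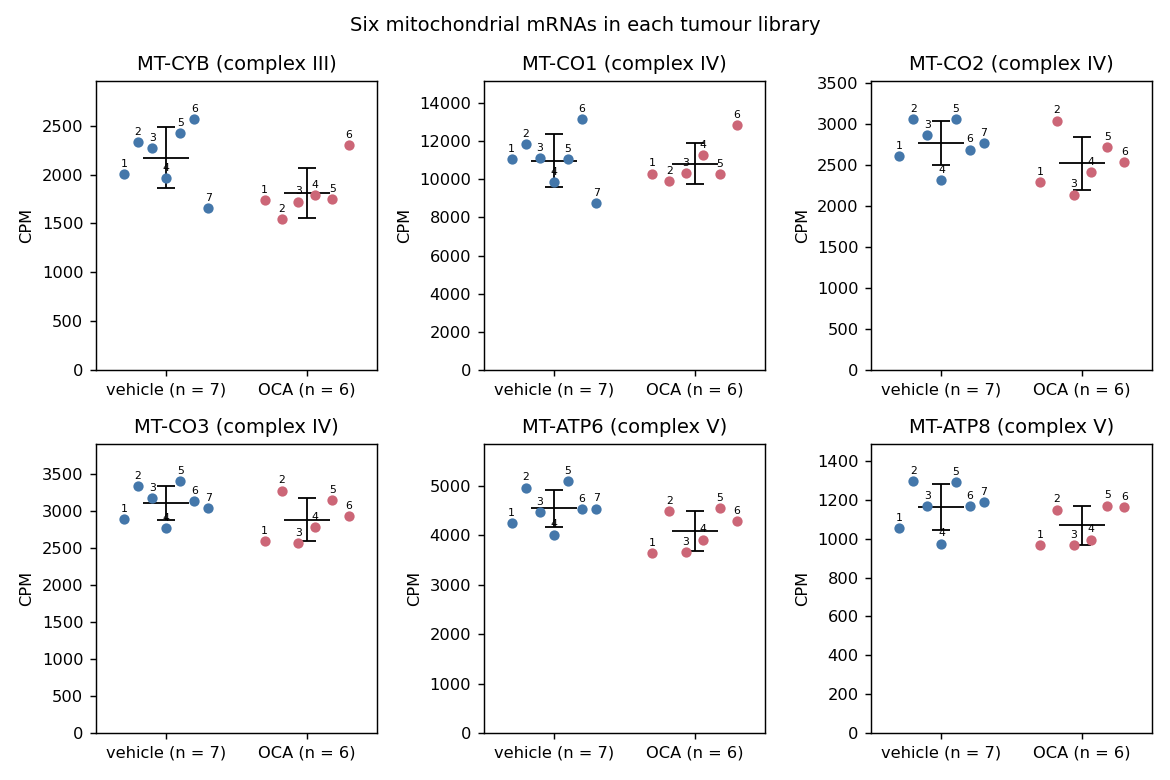
Read counts of the 6 mRNAs in CPM, with 1 point for each library, numbered by replicate, and bars for the group mean and SD (vehicle, n = 7; OCA, n = 6). The groups overlapped for each mRNA; MT-CYB was at 1542 to 1788 CPM in OCA replicates 1 to 5 and at 2298 in OCA replicate 6.

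MT-CYB, the cytochrome b of complex III, had 2002, 2332, 2268, 1962, 2424, 2570 and 1655 CPM in vehicle replicates 1 to 7, with a median of 2268. In OCA replicates 1 to 6 it had 1737, 1542, 1724, 1788, 1748 and 2298 CPM, with a median of 1742. OCA replicate 6 lay within the vehicle range, the other OCA libraries lay below all vehicle libraries but replicate 7, and only OCA replicate 2 lay below every vehicle library. The group means were 2173 ± 315 CPM in vehicle (SD, n = 7) and 1806 ± 256 in OCA tumours (SD, n = 6). The log2 fold change was -0.27 (SE 0.11, 95% interval -0.51 to -0.03), with an unadjusted p of 0.0324 and an adjusted p of 1 by edgeR. It was -0.23 within the lower and -0.23 within the upper label series. It was the only estimate of the 6 whose interval lay below 0, and it did not pass the adjusted threshold.

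MT-CO1, the catalytic core of complex IV, held more reads than any other transcript of the tables, by mean CPM. Its lowest, median and highest values were 8749, 11054 and 13162 CPM in vehicle and 9900, 10306 and 12811 in OCA tumours. All 6 OCA libraries lay within the vehicle range. The means were 10975 ± 1400 and 10811 ± 1079 CPM, and the log2 fold change was -0.02 (SE 0.09, 95% interval -0.22 to 0.18, unadjusted p = 0.819 and adjusted p = 1 by edgeR). Its sign was not fixed by the data: on the deposited TPM scale, and without vehicle replicate 6, the estimates were 0.02 and 0.03.

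MT-CO2, which carries the copper centre that takes electrons from cytochrome c, ran from 2324 to 3069 CPM in vehicle (median 2768) and from 2143 to 3046 in OCA tumours (median 2482). OCA replicates 1 and 3 were below all vehicle libraries, and OCA replicate 2, at 3046 CPM, was close to the top of the vehicle range. Its log2 fold change was -0.13 (SE 0.09, 95% interval -0.33 to 0.06, unadjusted p = 0.164 and adjusted p = 1 by edgeR), and -0.09 without OCA replicate 3. MT-CO3, the other core subunit of complex IV, ran from 2770 to 3405 CPM in vehicle (median 3140) and from 2566 to 3280 in OCA tumours (median 2861). The same 2 OCA libraries were below all vehicle libraries, and its log2 fold change was -0.11 (SE 0.07, 95% interval -0.27 to 0.05, unadjusted p = 0.171 and adjusted p = 1 by edgeR). Both intervals include 0.

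MT-ATP6, the membrane subunit of complex V that forms its proton channel, had 4248, 4965, 4470, 4016, 5090, 4526 and 4540 CPM in vehicle replicates 1 to 7. In OCA replicates 1 to 6 it had 3638, 4489, 3667, 3915, 4544 and 4282 CPM. All 6 OCA libraries were below the vehicle mean of 4551 ± 376 CPM, and OCA replicates 1, 3 and 4 were below every vehicle library. The log2 fold change was -0.15 (SE 0.08, 95% interval -0.32 to 0.01, unadjusted p = 0.0650 and adjusted p = 1 by edgeR). MT-ATP8, a small membrane subunit of complex V, ran from 974 to 1294 CPM in vehicle (median 1169) and from 965 to 1170 in OCA tumours (median 1072). OCA replicates 1 and 3 were just below the lowest vehicle library, and the rest overlapped. Its log2 fold change was -0.12 (SE 0.08, 95% interval -0.30 to 0.05, unadjusted p = 0.157 and adjusted p = 1 by edgeR). For none of the 6 members were all OCA libraries below all vehicle libraries, which held for 33 of the transcripts tested (0.0440%).

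Depth did not limit these values by counting: the member with the fewest reads, MT-ATP8, had at least 43466 in each library. The spread between tumours was 9.10% (MT-CO3) to 16.8% (MT-CYB) of the mean CPM over all 13 libraries.

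The 6 transcripts together took 2.46% ± 0.222 of all reads in vehicle (SD, n = 7, 2.14% to 2.78%) and 2.29% ± 0.199 in OCA tumours (SD, n = 6, 2.04% to 2.58%). The difference of -0.170 percentage points was smaller than the spread in either group, and 5 of 6 OCA libraries were below the vehicle mean. By complex, complex III (MT-CYB alone) took 0.216% ± 0.0290 and 0.179% ± 0.0254, complex IV 1.68% ± 0.155 and 1.60% ± 0.133, and complex V 0.570% ± 0.0591 and 0.511% ± 0.0613 in vehicle and OCA tumours. The difference for complex III, -0.0376 percentage points, exceeded the SD of either group; that for complex IV, -0.0736, was below both SDs, and that for complex V, -0.0592, was about 1 SD. Without the 3 vehicle libraries of lowest depth the summed difference was -0.0441, with complex III at -0.0225, complex IV turned to 0.00374 and complex V at -0.0253. Without the 3 libraries apart on the first component these were -0.265, -0.0412, -0.128 and -0.0953. Leaving out 1 library moved the complex IV difference to between -0.0376 (without vehicle replicate 2) and -0.115 (without OCA replicate 6), and it was -0.0407 without OCA replicate 1 and -0.0488 without OCA replicate 3. The summed difference was -0.117 within the lower and -0.103 within the upper label series. No p is given for these sums, since the members were chosen with results known.

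The complex I mRNAs and the rRNAs of the same genome give the frame for these values. The 7 complex I mRNAs took 1.28% ± 0.126 of reads in vehicle (SD, n = 7) and 1.21% ± 0.129 in OCA tumours (SD, n = 6), and 5 of them had estimates below 0, with a median log2 fold change of -0.02. MT-ND2, a membrane subunit of complex I, was the 1 with an unadjusted p under 0.05, at a log2 fold change of -0.20 (SE 0.09, unadjusted p = 0.0327 and adjusted p = 1 by edgeR). The 2 mitochondrial rRNAs took 0.429% ± 0.0706 and 0.427% ± 0.0607 of reads, with estimates of 0.02 for MT-RNR1 and 0.01 for MT-RNR2. Of the reads on all 13 mitochondrial mRNAs, the 6 members held 65.8% ± 1.54 in vehicle (63.5% to 68.5%) and 65.5% ± 0.583 in OCA tumours (64.8% to 66.4%). Over all 13 libraries, the balance between the 6 members and complex I thus differed between the groups by less than the spread among the vehicle libraries. The sign of this difference turned between the label series. It was 0.653 percentage points within the lower and -1.38 within the upper series.

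**Figure D2:**
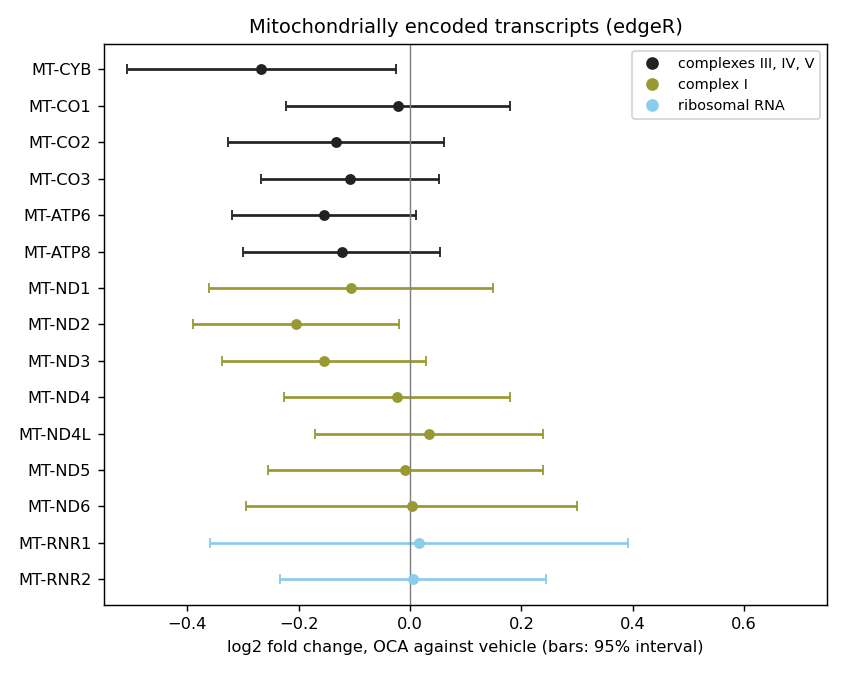
Log2 fold change of OCA against vehicle for the mitochondrially encoded transcripts by edgeR (x axis), with 95% intervals, and 1 line for each transcript. The intervals of MT-CYB (-0.51 to -0.03) and MT-ND2 (-0.39 to -0.02) lie below 0 before adjustment, and all others cross 0.

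Nuclear genes supply most subunits of the same 3 complexes, and 13 of their transcripts were read from a list of IDs named from general knowledge. Of these 13, 0 passed the adjusted threshold by edgeR, 12 had estimates below 0, and the median log2 fold change was -0.11. ATP5F1B, the catalytic subunit of complex V, had 358 ± 32.4 CPM in vehicle (SD, n = 7) and 321 ± 18.8 in OCA tumours (SD, n = 6). This is a log2 fold change of -0.16 (SE 0.07, unadjusted p = 0.0417 and adjusted p = 1 by edgeR). COX8A, a small subunit of complex IV, had 72.8 ± 7.41 and 61.9 ± 9.54 CPM, a log2 fold change of -0.23 (SE 0.10, unadjusted p = 0.0424 and adjusted p = 1 by edgeR). CYC1, the cytochrome c1 of complex III, was at -0.19 (SE 0.11) and COX4I1 of complex IV at -0.20 (SE 0.10). UQCRFS1 of complex III was at -0.11 (SE 0.07) and ATP5PO of complex V at -0.10 (SE 0.12). COX6A1 and COX5B of complex IV were at -0.09 (SE 0.06) and -0.07 (SE 0.08). Nearest to 0 were UQCRC1, UQCRC2 and COX7C. UQCRC1 and UQCRC2 of complex III were at -0.002 (SE 0.07) and -0.011 (SE 0.10), and COX7C of complex IV at 0.007 (SE 0.09). The estimates below 0 include 2 imprecise ones, COX5A at -0.27 (SE 0.30) and ATP5F1D at -0.44 (SE 0.72). Of the factors that make or keep mitochondrial RNA, TFAM, which packs and starts transcription of the mitochondrial genome, was at -0.15 (SE 0.10). POLRMT, its RNA polymerase, was at -0.13 (SE 0.08), and LRPPRC, which stabilises mitochondrial mRNAs, at 0.10 (SE 0.18). None of these 3 passed the threshold.

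The order of the 6 levels depended on which length was used. On the deposited TPM scale, which divides by an effective length, the order was MT-ATP8, MT-ATP6, MT-CO1, MT-CO2, MT-CO3 and MT-CYB, and each neighbouring pair stood in this order in 13 of 13 libraries. MT-ATP8 reached 101303 ± 9867 TPM (SD, n = 13), 10.1% of the TPM of all transcripts, while the other 5 members held 3.16% together. Its length is 207 bases and its effective length 10.8 bases, so its TPM was 10.3-fold that of MT-ATP6, whose lengths are 681 and 432 bases. The effective lengths were the same in all 13 libraries, so they entered the order alike in each. Per base of full length, MT-CO1 came first with 7.01 ± 0.734 CPM per base, here on unscaled library totals (SD, n = 13), followed by MT-ATP6 at 6.33 ± 0.761 and MT-ATP8 at 5.37 ± 0.658. MT-CO2 at 3.87 ± 0.516, MT-CO3 at 3.81 ± 0.412 and MT-CYB at 1.74 ± 0.287 followed. On this scale MT-CO1 and MT-ATP6 stood in that order in 9 of 13 libraries, and MT-CO2 and MT-CO3 in 7 of 13, so neither pair of neighbours differed beyond its spread. MT-CYB was last on both scales in every library, with a mean log2 ratio of MT-CO3 to MT-CYB of 1.34 ± 0.22 by TPM and 1.14 ± 0.22 per base (SD, n = 13).

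**Figure D3:**
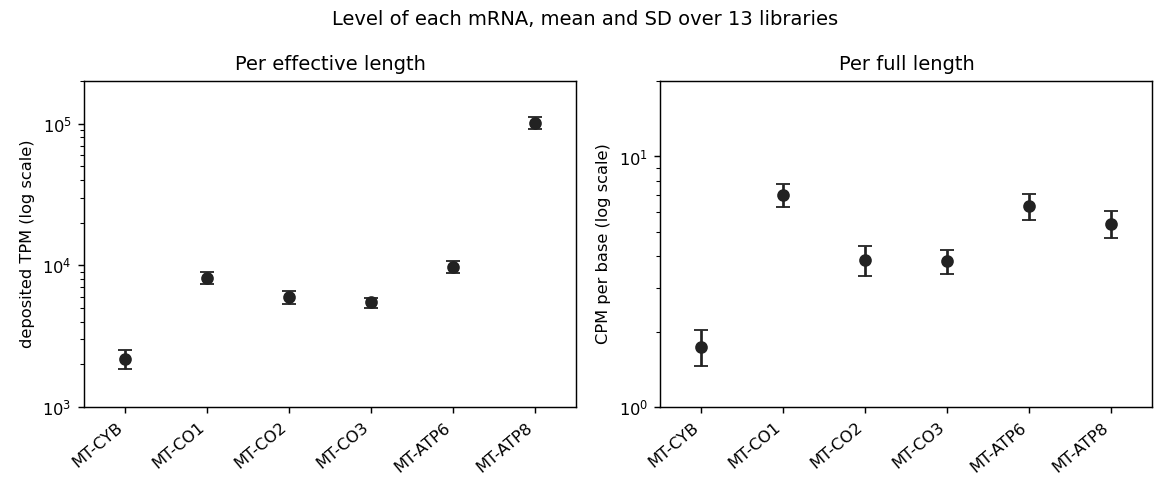
Level of each of the 6 mRNAs as mean and SD over 13 libraries, in deposited TPM (left) and in CPM per base of full length (right), both on log axes. MT-ATP8 stands at 101303 TPM on the left and between MT-ATP6 and MT-CO2 on the right; MT-CYB is lowest in both.

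Across the 13 tumours the 6 mRNAs did not vary as 1 block. MT-CO2, MT-CO3, MT-ATP6 and MT-ATP8, which lie next to each other on the genome, rose and fell together from tumour to tumour. Their 6 pairs correlated at Pearson r = 0.910 to 0.975 and Spearman rho = 0.857 to 0.978 on log2 CPM (permutation test, 100000 resamples, adjusted p = 5.4e-05 to 0.000225 over 27 relations). Without OCA replicates 1 and 3, the libraries farthest from the median, r was 0.866 to 0.963, and within the lower and upper label series it was 0.944 to 0.985 and 0.705 to 0.976. MT-CYB and MT-CO1, which lie apart on the genome, formed the other pair, with r = 0.792 and rho = 0.764 (permutation p = 0.00097, adjusted p = 0.00374). That call, over all 13 libraries, was lost when levels were taken as shares of the 13 mRNAs' reads (r = 0.427, permutation adjusted p = 0.156, and r = -0.0615 without the 2 farthest libraries). Within the vehicle and the OCA libraries their r was 0.748 and 0.883 on shares, and 0.919 and 0.953 on log2 CPM. On log2 CPM, without OCA replicate 2 and vehicle replicate 6, their r was 0.715. It was 0.812 within the lower series (exact permutation p = 0.0405) and 0.742 within the upper (exact permutation p = 0.128). The 8 pairs across these sets had r = 0.109 to 0.496, and 0 of 8 passed (permutation test, adjusted p = 0.123 to 0.721). The low r of MT-CYB with the set of 4 rested in part on 2 libraries. Without OCA replicate 2 and vehicle replicate 6 it was 0.615 to 0.644, near the 0.715 with MT-CO1. For MT-CO1 with the set of 4, r was 0.230 to 0.457 without vehicle replicates 6 and 7. On the scale of shares, which sum to a fixed total, 5 of the 8 pairs across the sets passed, with a negative sign. In all, 7 of 15 pairs passed the threshold on log2 CPM. The set of 4 was not closed: MT-ND2 of complex I, which does not lie among them on the genome, had r = 0.81 with MT-CO2, 0.85 with MT-CO3, 0.92 with MT-ATP6 and 0.88 with MT-ATP8, as a description over the 13 libraries. MT-ND4 of complex I, also outside the set, had r = 0.75, 0.78, 0.77 and 0.80 with the same 4. MT-CO1, next to MT-CO2 in the order of the mRNAs, had r = 0.11 with MT-CO2. The part of genome position in the set was not tested. In the plot of r over all 13 mRNAs, MT-ND6 is read from the opposite strand to the others, and without a stated strand setting its reads cannot be told apart from antisense RNA of its neighbours.

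**Figure D4:**
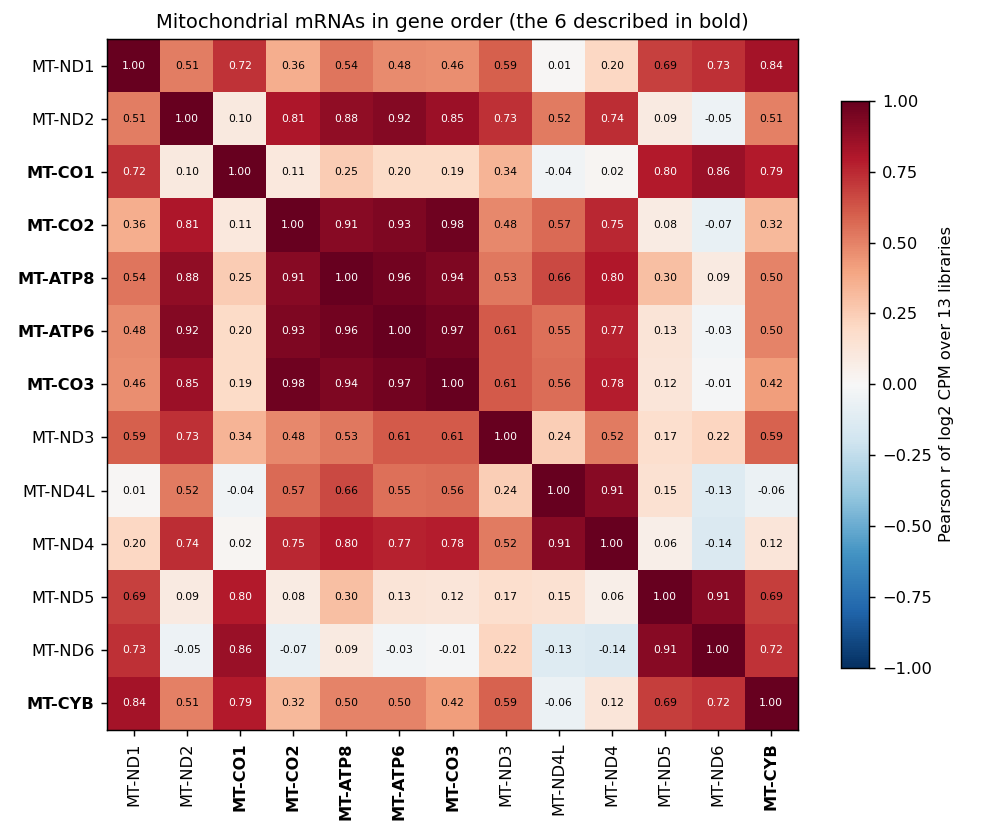
Pearson r of log2 CPM over 13 libraries between the 13 mitochondrial mRNAs, in gene order, with the 6 members in bold and the colour scale running from -1 to 1. MT-CO2, MT-ATP8, MT-ATP6 and MT-CO3 form a block of r = 0.91 to 0.98. MT-ND2 has r = 0.81 to 0.92 and MT-ND4 r = 0.75 to 0.80 with them. MT-CO1 and MT-CYB have r = 0.79 with each other and r = 0.69 to 0.86 with MT-ND1, MT-ND5 and MT-ND6.

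Vehicle replicate 6 and OCA replicate 2 are examples of this split. They are also the 2 libraries without which MT-CYB had r = 0.615 to 0.644 with the set of 4. Vehicle replicate 6 was the highest vehicle library for MT-CYB (2570 CPM) and MT-CO1 (13162 CPM) and near the vehicle median for MT-CO2 (2692 CPM) and MT-ATP6 (4526 CPM). OCA replicate 2 was the highest OCA library for MT-CO2 (3046 CPM) and MT-CO3 (3280 CPM) and the lowest for MT-CYB (1542 CPM) and MT-CO1 (9900 CPM). The read ratio of MT-CO1 to MT-CO2 ran from 3.16 in vehicle replicate 7 to 5.04 in OCA replicate 6, with both groups across most of that range. Ratios within the set of 4 were steadier, with a coefficient of variation of 2.70% to 4.92% over the 13 libraries, against 12.7% to 15.9% for ratios between the sets.

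By the rule for likeness, the transcripts nearest to a member among 14709 with a mean of at least 10 CPM were other members for MT-CO2 and MT-CO3, and not in every case for the rest. MT-CO2 was most like MT-CO3 (r = 0.975), then MT-ATP6 (0.934) and MT-ATP8 (0.910), and MT-CO3 was most like MT-CO2, then MT-ATP6 (0.968) and MT-ATP8 (0.935). MT-ATP8 was most like MT-ATP6 (0.962), then MT-CO3 (0.935) and ENST00000514057 (0.923), an ID without a name here. For MT-ATP6 the first was that ID (0.972), then MT-CO3 (0.968) and MT-ATP8 (0.962). For MT-CO1 it was ENST00000414273 (0.930), then another unnamed ID (0.885) and MT-ND6 (0.865). The nearest to MT-CYB were 3 IDs without a name, at r = 0.887 to 0.905. These r values are over 13 libraries and were the highest of many, so they describe the libraries and carry no p.

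These 2 IDs bear on how reads were assigned. ENST00000514057 has the length of MT-ATP6, 681 bases, and its estimated reads were 14.6% to 15.9% of those of MT-ATP6 in each library. ENST00000414273 has 1543 bases, against 1542 for MT-CO1, and its reads were 2.48% to 2.84% of those of MT-CO1. Nuclear copies of mitochondrial genes are known in the human genome, and reads that match both are divided by Salmon's model. The estimates of MT-CO1, MT-CO3 and MT-ATP6 were not whole numbers in any library, so part of their reads was shared with other transcripts. Those of MT-CYB, MT-CO2 and MT-ATP8 were whole to within 0.0005 in all 13. ENST00000514057 had 689 ± 46.7 CPM in vehicle and 614 ± 55.9 in OCA tumours, a log2 fold change of -0.17 (SE 0.07, unadjusted p = 0.0320 and adjusted p = 1 by edgeR). With both IDs added to their members, the summed difference in share of reads was -0.179 percentage points, against -0.170 without them.

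The 1 ratio that parted the groups was that of MT-CYB to MT-CO1. It was 0.181, 0.197, 0.204, 0.199, 0.219, 0.195 and 0.189 in vehicle replicates 1 to 7. In OCA replicates 1 to 6 it was 0.169, 0.156, 0.167, 0.159, 0.170 and 0.179. Each OCA library was below each vehicle library, by a gap as narrow as that between 0.179 in OCA replicate 6 and 0.181 in vehicle replicate 1. The means were 0.198 ± 0.0121 in vehicle (SD, n = 7) and 0.167 ± 0.00846 in OCA tumours (SD, n = 6). OCA replicate 6 and vehicle replicate 7, which lay far from their groups in MT-CYB, lay far in the same direction in MT-CO1, and their ratios were nearer to those of their groups. This was the only 1 of 15 pairs of members, and the only 1 of 78 pairs of the 13 mitochondrial mRNAs, whose ratios did not overlap. Of the other transcripts tested, 27 of 74972 (0.0360%) had a ratio to MT-CO1 that was lower in all OCA than in all vehicle libraries, MT-CYB among them. The pair was singled out after the values were seen, so no p is given. With the reads of ENST00000414273 added to MT-CO1, the ratio ran from 0.176 to 0.214 in vehicle and from 0.152 to 0.174 in OCA tumours.

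**Figure D5:**
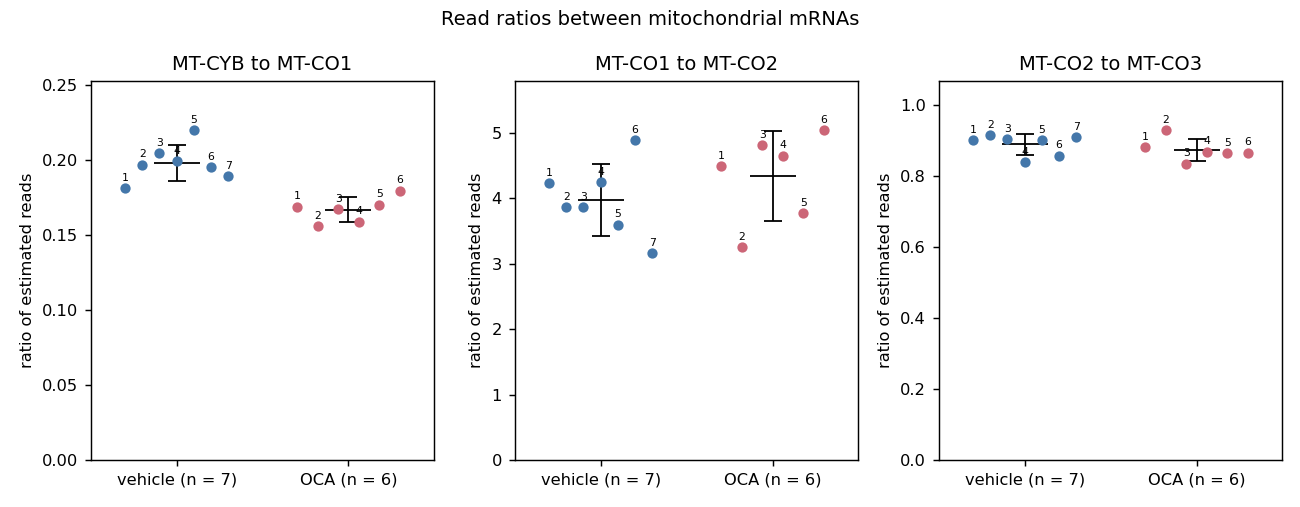
Ratio of estimated reads between pairs of the 6 mRNAs, with 1 point for each library, numbered by replicate, and bars for the group mean and SD (vehicle, n = 7; OCA, n = 6). MT-CYB to MT-CO1 was 0.181 to 0.219 in vehicle and 0.156 to 0.179 in OCA; the other ratios overlapped between the groups.

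Depth and transcript length moved with several members. Total reads correlated with MT-ATP8 at r = -0.720 (rho = -0.725, permutation adjusted p = 0.0192 for r), with MT-ATP6 at r = -0.665 (rho = -0.615, adjusted p = 0.0346) and with MT-CYB at r = -0.622 (rho = -0.549, adjusted p = 0.0490). Without vehicle replicates 2 and 5, which had the farthest totals from the median, these r were -0.458, -0.295 and -0.441. Within the vehicle libraries they were -0.850, -0.868 and -0.461, and within the OCA libraries -0.189, 0.003 and -0.928. For rho, MT-ATP8 passed (permutation adjusted p = 0.0228), and MT-ATP6 and MT-CYB did not (0.0743 and 0.117). Within the lower label series, which holds neither vehicle replicate 2 nor 5, MT-ATP8 had r = -0.744 (exact permutation p = 0.0181). Within the upper series it had r = -0.859 (exact permutation p = 0.0389). The values in the lower and upper series were -0.538 and -0.793 for MT-ATP6, and 0.237 and -0.808 for MT-CYB. MT-CO2 and MT-CO3 did not pass with total reads (r = -0.592 and -0.602, permutation adjusted p = 0.0593 and 0.0555). Within the vehicle libraries their r with total reads was -0.904 and -0.908, and within the OCA libraries 0.333 and 0.213. The share held by those long transcripts correlated with MT-CO2, MT-CO3 and MT-ATP6 at r = -0.655, -0.666 and -0.660 (rho = -0.632, -0.610 and -0.500, permutation adjusted p = 0.0346 for each r). Without OCA replicates 1 and 3 these r were -0.309, -0.301 and -0.295. Within the OCA libraries they were -0.964, -0.940 and -0.876, and within the vehicle libraries -0.018, -0.042 and 0.106. Within the lower series they were -0.522, -0.616 and -0.626, and within the upper -0.387, -0.317 and -0.293. For rho, MT-CO2, MT-CO3 and MT-ATP6 did not pass (permutation adjusted p = 0.0696, 0.0743 and 0.143). MT-CO1 correlated with neither measure at the adjusted threshold (r = -0.279 and -0.141, permutation adjusted p = 0.434 and 0.672). Its r with total reads was -0.211 within the vehicle and -0.783 within the OCA libraries. The differences between the groups without the 3 vehicle libraries of lowest depth, given with the fold changes above, were smaller for MT-CYB and for MT-CO2, MT-CO3, MT-ATP6 and MT-ATP8. Those libraries all belong to the vehicle group, and the part of long transcripts in the differences was not tested.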

How the data were processed

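RNA of 13 tumours, 7 vehicle and 6 OCA, was sequenced by the submitters as paired reads of 150 bases, from RNA with an integrity number above 6. The tools in the submitters' processing notes are FastQC, STAR, Salmon and DESeq2, with no versions, and the build is GRCh38.p14. Annotation and strand setting are not given in the sources used here. Deposited tables hold, per the file headers, an estimated count of reads and a TPM for every transcript, beside its length and effective length.

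Estimated counts were rounded. Transcripts were kept by edgeR's filterByExpr (minimum count 10, minimum total 15), scaled by TMM and compared by the quasi-likelihood F test with robust estimation (edgeR 4.0.16 in R 4.3.3), two-sided, with Benjamini-Hochberg adjustment over all 74973 transcripts at 0.05. CPM use TMM-scaled totals. Shares of reads, ratios and reads per base use the estimated counts. Correlations use permutation tests, or exact ones over 7 or 6 libraries of a label series. The fitting script was checked on simulated data. Replicates are numbered in accession order and pair no libraries. The edgeR p-values set the difference between the groups against the spread between these libraries. The permutation p-values concern correlations across them. Alternatives were DESeq2 1.42.0, limma 3.58.1 on counts and on log2(TPM + 1) or log2(TPM + 0.1), other scalings and filters, the label series, and leaving out libraries; within-series fits and sums with the 2 similar IDs were added after seeing the data.

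The 6 members are always named, and the 3 most like transcripts of each are given by r, with at most 2 unnamed ones by ID. The members and lists were chosen with earlier results of these data known. Nuclear transcripts were named from general knowledge of their IDs; 1 of 14, listed as ATP5F1A, was left out because its length of 5761 bases does not match that gene's main mRNA. Human sequences were not used here.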

Additional observations from a re-analysis of the deposited data

Results flagged for a closer look

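MT-CYB in OCA replicate 6, at 2298 CPM, stood apart from the other 5 OCA libraries at 1542 to 1788 CPM, by a gap that exceeded Dixon's 95% critical value for 6 samples. The share of reads on complex III in the same library, 0.228% against 0.155% to 0.179% in the other 5, is the same measurement in another unit. In that library MT-CO1 was also the highest of the OCA group, at 12811 CPM. Chance flags about 1 in 20 groups, and 52 groups were examined, so 2.6 flags would be expected against the 2 found.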

How the results depend on the processing

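The count of members past the adjusted threshold was 0 under all 29 alternatives. Of 174 refitted fold changes of members, 167 kept their direction and 7 turned, all of them MT-CO1. Its log2 fold change was 0.0208 by limma on log2(TPM + 1) and 0.0208 on log2(TPM + 0.1), 0.00110 with the label series as a covariate and 0.0165 within the upper series. With the 3 vehicle libraries of lowest totals left out it was 0.0185, and over the fits that leave out 1 library it ran from -0.0740 (without vehicle replicate 7) to 0.0265 (without vehicle replicate 6). MT-CYB stayed between -0.34 and -0.18, with a lowest adjusted p of 0.49.

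By shares of TPM, which MT-ATP8 dominates, the difference was -0.765 percentage points for the 6 members and -0.676 for complex V. With libraries left out in turn, the summed share difference ran from -0.227 to -0.117; it was -0.0441 without the 3 vehicle libraries of lowest totals and -0.265 without the 3 apart on the first component. Per base of full length, the log2 ratio was -0.24 for MT-ATP8 to MT-ATP6, -0.15 for MT-ATP6 to MT-CO1, 0.86 for MT-CO1 to MT-CO2 and 0.0157 for MT-CO2 to MT-CO3.

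As shares of the 13 mRNAs' reads, which must sum to a fixed total, 11 of 15 pairs passed, and MT-CYB with MT-CO1 did not (r = 0.427, permutation adjusted p = 0.156). For that pair r was 0.748 within the vehicle and 0.883 within the OCA libraries. On this scale, over all 13 libraries, MT-CYB correlated at -0.556 with MT-CO2, -0.622 with MT-CO3, -0.393 with MT-ATP6 and -0.486 with MT-ATP8. MT-CO1 correlated at -0.802, -0.809, -0.874 and -0.901 with the same 4. No paired analysis was possible because the labels give the groups no shared replicate numbers.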
